A study of Danio rerio with 4 samples.

Results

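The genes described are 9 zebrafish transcription factor genes that are best known from blood vessels. They comprise 3 SoxF genes (*sox7*, *sox17* and *sox18*) and 6 ETS genes (*fli1a*, *fli1b*, *erg*, *etv2*, *ets1* and *ets2*). They were taken by symbol from the 32520 gene rows of the count files, and each matched 1 row. In the reference tables *fli1a* is listed as *fli1*, *fli1b* as *fli1rs* and *etv2* as *etsrp*. The rows are ENSDARG00000030125 (*sox7*), ENSDARG00000101717 (*sox17*), ENSDARG00000058598 (*sox18*), ENSDARG00000054632 (*fli1a*), ENSDARG00000040080 (*fli1b*), ENSDARG00000077304 (*erg*), ENSDARG00000053868 (*etv2*), ENSDARG00000024431 (*ets1*) and ENSDARG00000103980 (*ets2*).

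ETS factors bind DNA through a winged helix-turn-helix ETS domain at sites with a GGA core, which occur in most known endothelial enhancers. Etv2 starts the endothelial program in the embryo, after which Fli1 and Erg keep endothelial genes active. SoxF factors carry an HMG box that bends DNA. In zebrafish, *sox7* and *sox18* act redundantly in setting arterial and venous identity, and mammalian SOX17 is best known from arterial endothelium. Endocardium and coronary vessels both belong to the endothelial lineage in which these factors work.

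The libraries came from endothelial cells of adult zebrafish ventricles collected 7 days post-amputation (dpa), and the comparison asked how gene expression changed when Brg1, the ATPase of a chromatin remodelling complex, was inhibited in endothelium. Both groups carried *ubi:loxp-DsRed-STOP-loxp-DN-xBrg1*, which codes for a dominant-negative form of *Xenopus* Brg1 behind a floxed stop, and *kdrl:eGFP*. Both had also received 4-hydroxytamoxifen (4-HT, 3 days according to the labels), which activates CreER, and ventricular amputation. The 2 DNK libraries came from fish that in addition carried *kdrl:CreER*, and the 2 CtrlK libraries from siblings without it, so neither group was uninjured or free of 4-HT. One promoter, *kdrl*, drove both the recombinase and the EGFP used for sorting. Ventricles of several hearts were pooled for each isolation after removal of the atrium and bulbus, and the study calls the 2 libraries of a group biological replicates. The age of the adult fish is not given in the sources used here.

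Each library started from about 30 ng of total RNA, and total counts lay between 25189862 and 28770727, so that 3 counts correspond to 0.104 to 0.119 CPM, the counts of a gene relative to the scaled library size. The dominant-negative transgene and CreER have no row in the count table, and the labels could not be checked by them. The zebrafish Brg1 gene *smarca4a*, whose row was named from the chromosome of its neighbours, had 621 and 756 counts in CtrlK and 1153 and 798 in DNK (log2 fold change 0.40, SE 0.196, adjusted p = 0.27 in edgeR's quasi-likelihood test). The sorted identity was checked with 8 endothelial markers, which were all detected and summed to between 3577 and 4465 CPM per library. *kdrl* had 22782, 28519, 19725 and 19779 counts and *cdh5*, which codes for VE-cadherin, had 21101, 26099, 23986 and 18930 in CtrlK1, CtrlK2, DNK1 and DNK2. RNA of other cell types was present too, and whether whole cells were sorted along was not tested. Of all counts, 11 cardiomyocyte markers took 1.45% and 0.51% in CtrlK1 and CtrlK2 and 0.188% and 0.0711% in DNK1 and DNK2. In DNK2 1 of these markers, *tpm4a*, held 14759 of the 18930 counts of the list.

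All 9 factors were detected in every library, and 8 of the 9 did not pass the test between CtrlK and DNK. *sox18* fell in DNK, to 2019.7 ± 62.5 normalized counts (SD, n = 2) from 3080.5 ± 398 (SD, n = 2) in CtrlK. No ETS gene passed the test, and 5 of the 6 had a log2 fold change under 0.2 in size. The remaining one, *ets1*, was the member with the largest positive value and did not pass either. Normalized counts are counts scaled by TMM factors to the mean library size, log2 fold changes are DNK minus CtrlK, and called means an adjusted p under 0.05 in edgeR's quasi-likelihood test with Benjamini-Hochberg adjustment over the 17151 genes tested. All 9 members entered that test. Called genes were 1 of 9 members (*sox18*, lower) against 8.45% of all genes tested, of which 4.23% were lower and 4.22% higher. At an unadjusted p under 0.05 there were 3 members (*sox17*, *sox18* and *ets1*), against 23.9% of all genes tested. Both DNK libraries lay below both CtrlK libraries for 4 members (*sox7*, *sox17*, *sox18* and *erg*), against 28.6% of all genes tested. For *fli1b* and *ets1* both lay above, against 26.9%, and the groups overlapped for the other 3. With only 9 genes, nothing particular to the list can be read from these counts.

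**Figure D1:**
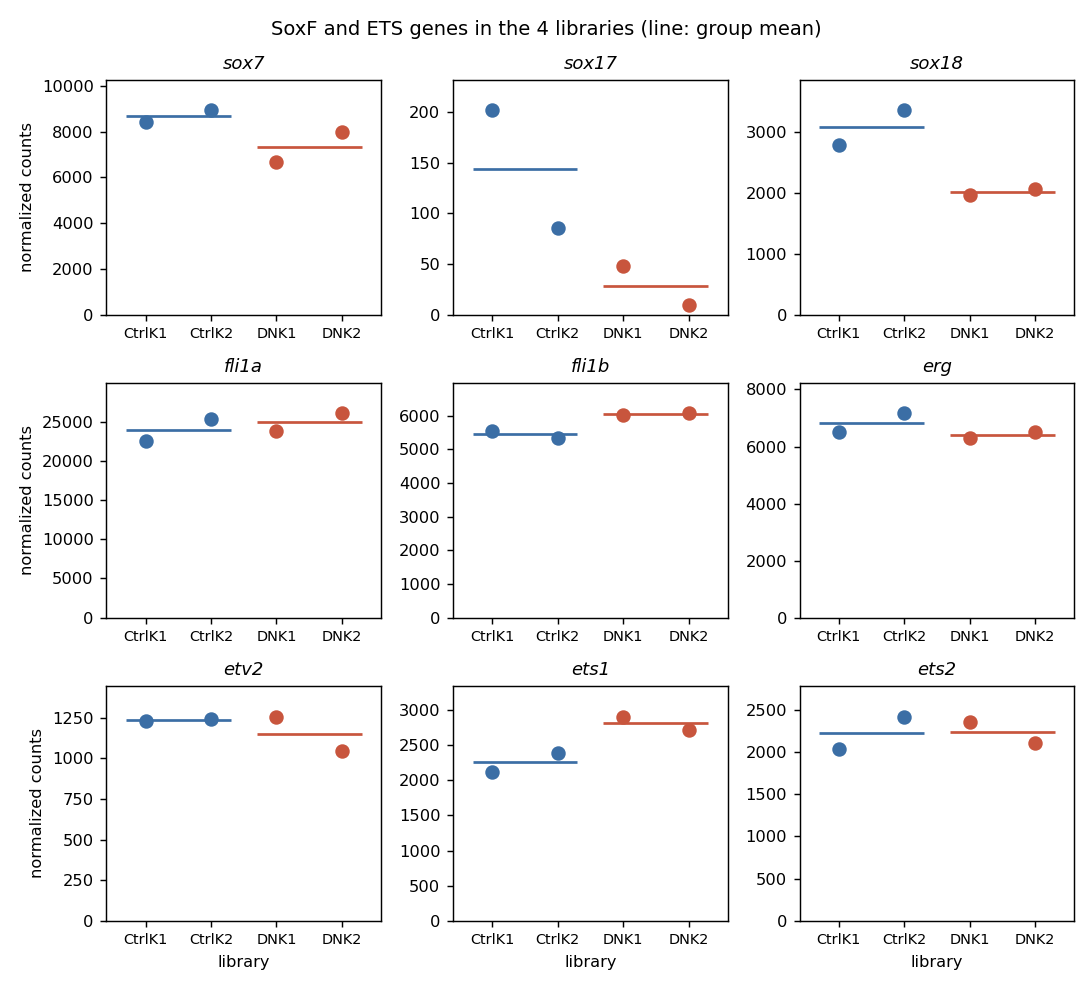
Normalized counts (y axis, own scale for each gene) of the 9 factors in CtrlK1, CtrlK2, DNK1 and DNK2, each point 1 library and each line the mean of a group. *sox18* separates at 2799 and 3362 in CtrlK against 1976 and 2064 in DNK, while *fli1a*, *etv2* and *ets2* overlap.

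Among the SoxF genes, *sox18*, a factor of vascular and lymphatic development, had 2799 and 3362 normalized counts in CtrlK1 and CtrlK2. In DNK1 and DNK2 it had 1976 and 2064. Both DNK libraries were close to each other and under both CtrlK libraries, which were further apart. The level was 34.4% lower in DNK by the group means, with a log2 fold change of −0.61 (SE 0.131, 95% interval −0.92 to −0.30, adjusted p = 0.035 in edgeR's quasi-likelihood test). DESeq2 called it as well (adjusted p = 0.00082), as the 1 member among the 9, against 15.8% of all genes tested. The call depended on the libraries used. It held without CtrlK1 (log2 fold change −0.73, adjusted p = 0.044), and it was lost without CtrlK2 (−0.47, adjusted p = 0.16), without DNK1 (−0.58, adjusted p = 0.12) and without DNK2 (−0.64, adjusted p = 0.11), fits in which the lone library of a group is taken to vary like the other group. It was also lost when library size was taken from total counts alone (−0.54, adjusted p = 0.074).

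*sox7*, which works alongside *sox18* in zebrafish vessels, had 8413 and 8927 normalized counts in the CtrlK libraries and 6687 and 7995 in the DNK libraries. The groups did not overlap, but DNK2 was nearer to CtrlK1 than to DNK1. The log2 fold change was −0.24 (SE 0.108, 95% interval −0.49 to 0.01, adjusted p = 0.23). *sox17* was a low gene, with 176, 91, 51 and 9 raw counts in CtrlK1, CtrlK2, DNK1 and DNK2. These are 202, 85.2, 47.5 and 9.04 normalized counts, so that both groups were wide and CtrlK2 lay closer to DNK1 than to CtrlK1. The log2 fold change of *sox17* was −2.33 with an interval from −4.32 to −0.34 (SE 0.845, adjusted p = 0.15). It was called when no filter on low counts was used (−2.32, adjusted p = 0.0038) and with the replicate number as a block (−2.59, adjusted p = 0.045), and with 1 library left out its log2 fold change ran from −3.97 to −1.58 without a call. *sox32*, a zebrafish gene close to *sox17* that acts in endoderm, had 0, 0, 1 and 0 counts and was not tested.

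Of the ETS genes, *fli1a* and *fli1b* are the zebrafish copies of *FLI1*, which maintains endothelial gene expression. *fli1a* had 22581 and 25371 normalized counts in CtrlK and 23881 and 26076 in DNK. Its groups overlapped, and replicates differed by more than the group means (log2 fold change 0.06, SE 0.0853, 95% interval −0.14 to 0.26, adjusted p = 0.75). *fli1b* had 5549 and 5345 in CtrlK and 6007 and 6064 in DNK. Here both DNK libraries were above both CtrlK libraries, by a step that did not pass the test (log2 fold change 0.15, SE 0.0886, 95% interval −0.06 to 0.36, adjusted p = 0.37). *erg*, whose mammalian product guards endothelial identity and junctions, had 6509 and 7159.5 normalized counts in CtrlK and 6298 and 6494 in DNK. The highest DNK value was just under the lowest CtrlK value, and the log2 fold change was −0.10 (SE 0.0922, 95% interval −0.31 to 0.12, adjusted p = 0.60). Reads that fit several places were left out by the authors, so counts of copies such as *fli1a* and *fli1b* leave out reads that fit both.

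*etv2*, which is needed for the first endothelial cells of the embryo, was also detected in these adult cells, with 1071 and 1324 raw counts in CtrlK and 1349 and 1038 in DNK. After normalization these were 1227, 1240.2, 1258 and 1043. DNK1 was the highest and DNK2 the lowest library, and the log2 fold change was −0.10 (SE 0.155, 95% interval −0.46 to 0.26, adjusted p = 0.77). *ets1*, a factor of angiogenic endothelium and several other cell types, had 2123 and 2391 normalized counts in CtrlK and 2911 and 2721 in DNK. Both DNK libraries were above both CtrlK libraries, and the log2 fold change was 0.32 (SE 0.121, 95% interval 0.03 to 0.61), which did not pass (adjusted p = 0.16 in edgeR's quasi-likelihood test). *ets2*, a close relative of *ets1* that is expressed in many tissues, had 2042 and 2424 normalized counts in CtrlK and 2362 and 2110.1 in DNK. The group means of *ets2* were 2233 ± 271 and 2236 ± 178 (SD, n = 2 each), and its 95% interval ran from −0.32 to 0.33. DESeq2 likewise called no ETS member, with adjusted p from 0.11 (*ets1*) to 1.0 (*ets2*).

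**Figure D2:**
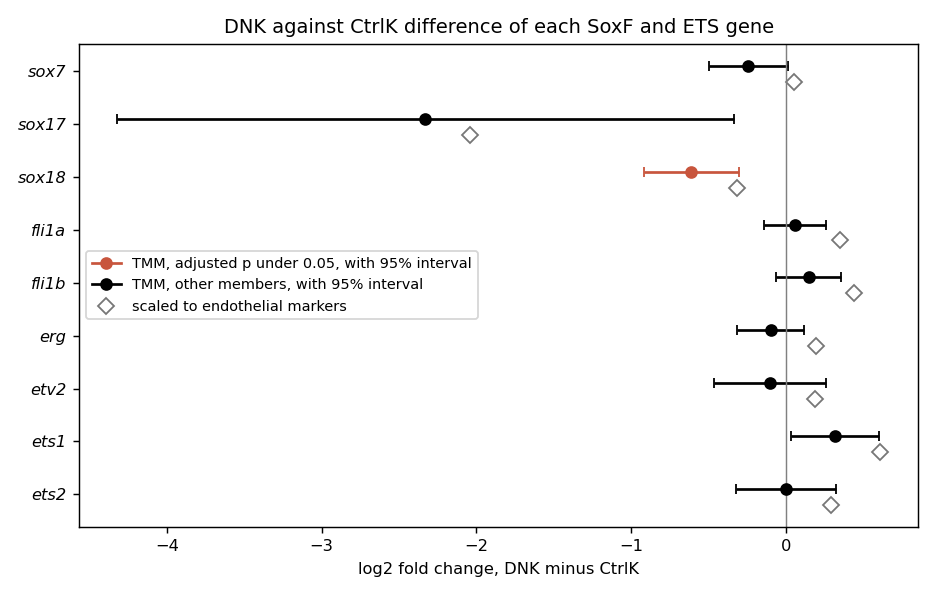
Log2 fold change, DNK minus CtrlK, of each factor under TMM scaling (points, with 95% intervals as lines) and after scaling to the summed endothelial markers (diamonds, no interval drawn). Under TMM only *sox18* is called (−0.61), and after endothelial scaling *fli1a* (0.35), *fli1b* (0.44) and *ets1* (0.61) are called higher while *sox18* (−0.32) is not.

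The endothelial markers themselves were mostly at lower levels in DNK. Of the 8 markers 7 had a negative log2 fold change and 3 were called lower, against 4.23% of all genes tested. Their summed levels were 4333 and 4465 CPM in CtrlK and 3577 and 3609 in DNK. In a bulk library, fewer endothelial cells among those sorted and less of these RNAs per cell cannot be told apart. Scaling to the markers' summed counts moved the median of all genes by 0.29 on the log2 scale and left 80.2% of called genes higher in DNK, against 49.9% with TMM. Under it *sox18* no longer passed (−0.32, adjusted p = 0.13), and *sox7* (0.05), *erg* (0.20) and *etv2* (0.19) turned to positive values that were not called. *fli1a* (0.35, adjusted p = 0.024), *fli1b* (0.44, adjusted p = 0.019) and *ets1* (0.61, adjusted p = 0.016) were called higher, which is 3 of 9 members against 15.8% of all genes called with that scaling, 12.6% higher and 3.11% lower. *ets2* (0.30, adjusted p = 0.18) and *sox17* (−2.04, adjusted p = 0.16) were not called. The direction of *sox7*, *erg* and *etv2* thus depended on the scale, and that of *sox17*, *sox18*, *fli1a*, *fli1b* and *ets1* was the same with every scaling used.

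Ratios within a library need no scaling factor, but *kdrl*, *pecam1* and *cdh5* are among the markers behind the endothelial scaling. These ratios are therefore no separate check of it. *kdrl* (log2 fold change −0.47) and *pecam1* (−0.66) were called lower in DNK. *cdh5* (−0.23) was not called but was lower in both DNK libraries. Lower denominators raise the ratios in DNK. For every 100 *kdrl* counts there were 10.7, 12.6, 10.7 and 10.4 *sox18* counts in CtrlK1, CtrlK2, DNK1 and DNK2, so the groups overlapped. Against *pecam1*, an endothelial adhesion gene picked after its values were seen, *sox18* stood at 67.3, 66.0, 74.1 and 65.0 counts per 100, again with overlap. Against *cdh5* it stood at 11.6, 13.8, 8.83 and 10.9, with both DNK values lower. *ets1* was at 8.78, 9.78, 13.0 and 14.3 counts per 100 *cdh5* counts, higher in both DNK libraries. *fli1a*, *fli1b*, *etv2* and *ets2* were also higher per *cdh5* count in both DNK libraries, *etv2* for example at 5.08, 5.07, 5.62 and 5.48, while *erg* overlapped. No exon lengths were used here, so these ratios compare libraries and not the levels of different genes.

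Markers of other cells moved with the groups. The 11 matched cardiomyocyte markers all had negative log2 fold changes, 1 of them called (*tcap*), and summed to 15360 and 5056 CPM in CtrlK and 1821 and 700.2 in DNK. *tpm4a* alone supplied 1213 and 763 CPM of these sums in CtrlK1 and CtrlK2 and 573 and 546 in DNK1 and DNK2. It thus held most of the DNK2 sum, and its log2 fold change (−0.82) was the smallest in size of the list (median −3.66). *sox17* ranked the 4 libraries in the same order as the summed list, from CtrlK1 down to DNK2. *sox18* did not, being highest in CtrlK2 and lowest in DNK1. The summed leukocyte markers had the same library order as *sox17* too, so that order was not particular to the cardiomyocyte list. Sums of the erythrocyte, thrombocyte and mural cell markers ranked the libraries otherwise. The 6 erythrocyte markers (2 called lower) summed to between 51.27 and 213.9 CPM in CtrlK and between 3.466 and 15.2 in DNK. The 7 tested leukocyte markers (4 called lower) summed to 410.2 and 409.4 CPM in CtrlK and 228.3 and 213.4 in DNK, with *lyz* at 0 in all libraries and *mpx* at 0 in both DNK libraries. The 4 thrombocyte markers summed to 8.308 and 17.62 CPM in CtrlK and 1.716 and 1.443 in DNK. The 3 tested ones were all called lower, with *itga2b* at 0 in DNK. The untested one, *gp9*, had 1 and 0 counts in CtrlK and 1 and 9 in DNK, so it added to the DNK2 sum. Among 8 epicardial and fibroblast markers 3 were called higher (*col1a1a*, *col1a2* and *pdgfra*), and the list, with most of its counts in the collagen genes and *dcn*, summed to 1713 and 1810 CPM in CtrlK and 2516 and 2666 in DNK. The other 5 did not pass edgeR's test, and 4 of the 8 had a negative log2 fold change. The epicardial genes *tcf21* (19, 56, 14 and 0 counts), *tbx18* (47, 62, 0 and 4) and *wt1b* (29, 11, 21 and 60) were low in CtrlK1, CtrlK2, DNK1 and DNK2, and *postnb* had 818, 18, 1 and 0. DESeq2, which called 15.8% of all genes tested where edgeR called 8.45%, called *tbx18* (adjusted p = 0.0063) and *postnb* (adjusted p = 0.005) lower. In the lists above, DESeq2 kept the edgeR calls. It added as lower *ryr2b* (adjusted p = 0.013), *actc1a* (0.023), *cmlc1* (0.027) and *atp2a2a* (0.039) of the cardiomyocyte markers. Also added as lower were the erythrocyte markers *hbaa1*, *hbba2* and *alas2* and the leukocyte markers *mpeg1.1* and *spi1b*. Of the endothelial markers DESeq2 added *esama* as lower (adjusted p = 0.018). The 5 mural cell markers (1 called lower, *myh11a*) summed to 108.9 and 76.48 CPM in CtrlK and 38.61 and 41.39 in DNK. For lymphatic endothelium, in which mammalian SOX18 acts early, 4 of 5 listed markers were tested. *stab2* rose (log2 fold change 1.13, adjusted p = 0.047) and *mrc1a* fell (−1.59, adjusted p = 0.037). *prox1a* (0.35, adjusted p = 0.55) and *flt4* (−0.14, adjusted p = 0.90) did not pass edgeR's test, and *lyve1b* was at 0 in all libraries. The part of RNA from these other cell types in the values of *sox17*, *sox18* and *ets1* was not tested.

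**Figure D3:**
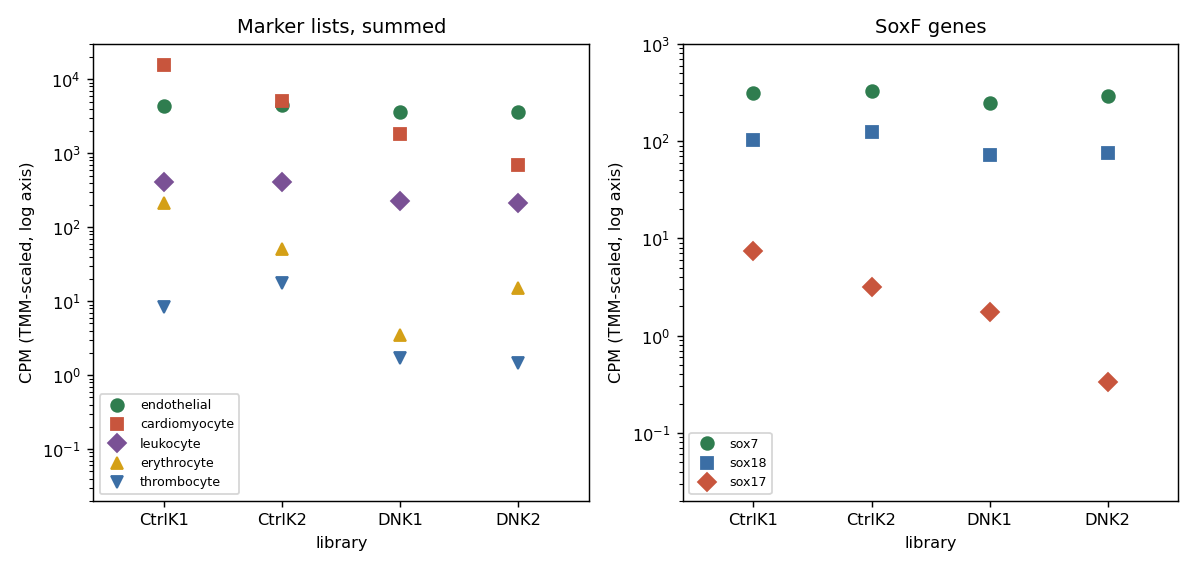
Left, summed CPM (log axis) of 5 marker lists in each library. Right, CPM (log axis) of the 3 SoxF genes. Cardiomyocyte markers fall from 15360 to 700.2 CPM in the same library order as *sox17*, whose values span a far wider range than those of *sox7* and *sox18*. Leukocyte markers have that library order too. *tpm4a* alone holds 1213 CPM of the cardiomyocyte sum in CtrlK1 and 546 in DNK2.

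The make-up of each family was also compared between libraries, as shares of the counts of its members with 95% Wilson intervals, which cover counting error only and rest on reads without molecular identifiers. *sox18* made up 24.5% (23.7 to 25.4) and 27.2% (26.4 to 27.9) of SoxF counts in CtrlK1 and CtrlK2. In DNK1 and DNK2 it made up 22.7% (21.8 to 23.5) and 20.5% (19.7 to 21.3), so its share was lower in both DNK libraries. The *sox7* share was accordingly higher there, at 76.8% and 79.4% against 73.7% and 72.1%. *sox17* supplied 1.77% and 0.689% in CtrlK and 0.546% and 0.0898% in DNK. Among the ETS members *ets1* took 5.30% and 5.44% of counts in CtrlK and 6.81% and 6.11% in DNK, and *erg* took 16.3% in both CtrlK libraries and 14.7% and 14.6% in DNK. The shares of *fli1a* (55.9% to 58.6%), *fli1b* (12.2% to 14.1%), *etv2* (2.34% to 3.07%) and *ets2* (4.74% to 5.53%) overlapped between groups.

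The 6 ETS genes form 3 pairs of neighbours, *ets1* with *fli1a*, *etv2* with *fli1b* and *ets2* with *erg*. Members of a pair are on consecutive rows of the count table and are also next to each other in the gene order of the RefSeq assembly GRCz12tu. The ratio within a pair differed in direction from pair to pair. There were 9.40 and 9.42 *ets1* counts per 100 *fli1a* counts in CtrlK and 12.2 and 10.4 in DNK, higher in both DNK libraries. For *etv2* per 100 *fli1b* the values were 22.1 and 23.2 in CtrlK and 20.9 and 17.2 in DNK, lower in both. The *ets2* per *erg* ratio overlapped, at 31.4 and 33.9 in CtrlK and 37.5 and 32.5 in DNK. These ratios were not tested.

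Other genes of the same families were detected as well. Of 22 further ETS genes listed 19 matched a row and 15 were tested, with a median log2 fold change of −0.11 against −0.02 over all genes tested, and 1 of the 15 was called, against 8.45% of all. It was *etv5b*, which is known as a target of FGF signaling, with 1756 and 2202 raw counts in CtrlK and 759 and 806 in DNK (log2 fold change −1.43, SE 0.141, adjusted p = 0.0017). Its DNK libraries lay far below both CtrlK libraries, and it stayed called with endothelial scaling (−1.13, adjusted p = 0.0034). *etv5a* (0.58, adjusted p = 0.14) and *etv4* (0.23, adjusted p = 0.29) went the other way, higher in both DNK libraries without a call. With endothelial scaling, which called 12.6% of all genes higher, both were called higher (adjusted p = 0.031 and 0.025). Of 23 further Sox genes 21 matched, 11 were at 0 in all libraries and 7 were tested, with a median of 0.35. The 1 called Sox gene among those 7, against the same 8.45% of all, was *sox13*, a SoxD gene, with 378 and 625 raw counts in CtrlK and 131 and 187 in DNK (−1.72, SE 0.321, adjusted p = 0.021). It was not called without CtrlK2 or without DNK1.

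Endothelial genes that have been linked to ETS or SoxF factors went in both directions. Of 26 genes, all tested, 3 were called higher (4.22% of all genes tested), 6 were called lower (4.23% of all) and 17 were not called, with a median log2 fold change of −0.14. The higher ones were *vwf*, which codes for von Willebrand factor (0.76, adjusted p = 0.0011), *flt1*, a VEGF receptor that can act as a decoy (0.54, adjusted p = 0.0069), and *tal1*, a bHLH factor of blood and endothelium (0.89, adjusted p = 0.026). Normalized counts of *vwf* were 22836 ± 1051 (SD, n = 2) in CtrlK against 38789 ± 154 (SD, n = 2) in DNK. Of the lower ones, *efnb2a*, the arterial ephrin ligand, had 883 and 1016 normalized counts in CtrlK and 180 and 183 in DNK (−2.39, SE 0.208, adjusted p = 0.0011). The adhesion gene *vcam1a* (−4.92, adjusted p = 0.0058), the MADS-box factor gene *mef2ca* (−2.51, adjusted p = 0.026), *kdrl* (−0.47, adjusted p = 0.011) and *egfl7* (−0.35, adjusted p = 0.025) were also lower, as was *pecam1* (−0.66, adjusted p = 0.034). *mef2ca* had 369 and 487 raw counts in CtrlK and 43 and 114 in DNK. The study used Mef2C staining to mark cardiomyocyte nuclei, and the part of cardiomyocytes in the *mef2ca* values was not tested. *vcam1a* was low, with 339 and 397 raw counts in CtrlK and 22 and 4 in DNK. *vcam1b* had 26810 and 33245 in CtrlK and 33621 and 33073 in DNK, and did not pass (0.06, adjusted p = 0.64). *cdh5*, a well known target of ETS factors, did not pass either (−0.23, adjusted p = 0.17). Unlike *efnb2a*, *dll4* (−0.04, adjusted p = 0.82) and *notch1b* (0.10, adjusted p = 0.51) did not pass with TMM. With endothelial scaling 8 of the 26, *notch1b* and *vcam1b* among them, were called higher (12.6% of all genes) and 3 lower (3.11% of all). The balance of the list thus changed with the scale, but this was partly built in. *kdrl*, *cdh5*, *kdr*, *tie1*, *tek*, *egfl7* and *pecam1* of this list are among the markers that set that scale. Of the genes called lower with TMM, *kdrl* (−0.17), *egfl7* (−0.06) and *pecam1* (−0.37) were no longer called with it. The 9 calls came down to 5 without CtrlK1 and to 4 without CtrlK2.

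**Figure D4:**
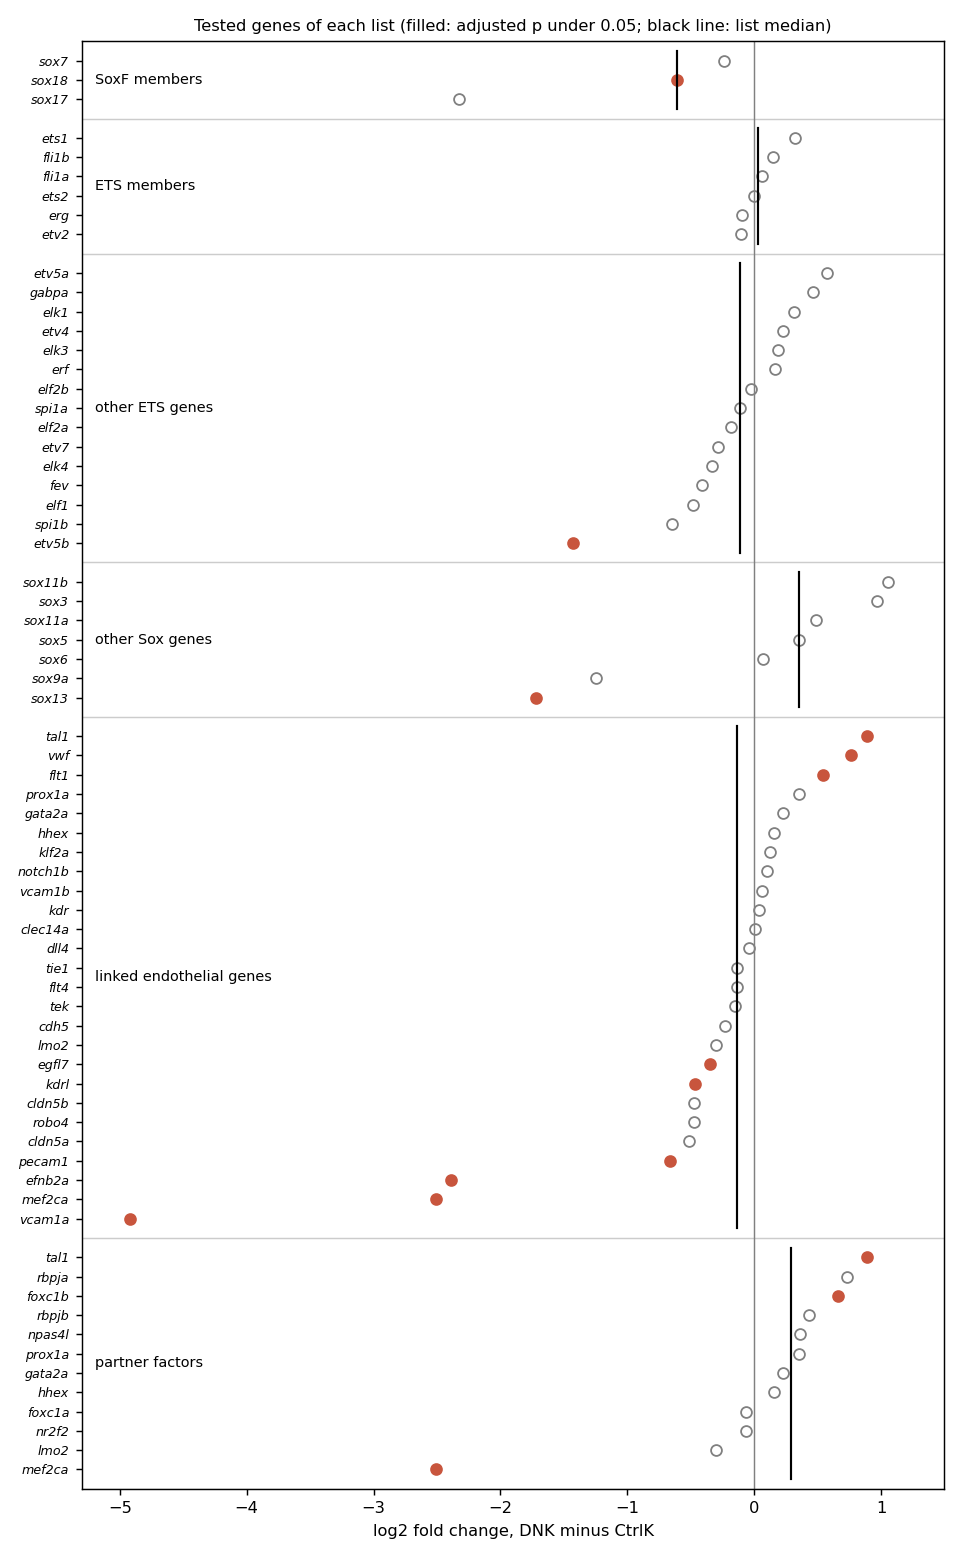
Log2 fold change, DNK minus CtrlK (TMM scaling), of every tested gene of the member lists and of the related lists, with called genes filled and the list median as a black line. The ETS members lie around 0 and the SoxF members on the lower side, though *sox7* turned to 0.05 after endothelial scaling. Linked endothelial genes reach from −4.92 (*vcam1a*, a gene of low counts, with *vcam1b* at 0.06) to 0.89 (*tal1*).

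Transcription factors known to work with these families were counted last. Of 13 partner factors 12 were tested, and 2 were called higher, *tal1* and the forkhead gene *foxc1b* (0.66, SE 0.104, adjusted p = 0.011). *foxc1b*, whose family binds composite sites together with ETS factors, had 2909 and 3174 normalized counts in CtrlK and 4764 and 4843 in DNK, and the groups were well apart. *foxc1a* of the same family had 6312 and 5277 in CtrlK and 5361 and 5749 in DNK, with overlap and no call (−0.06, adjusted p = 0.81). *mef2ca* was the only one called lower, and the part of cardiomyocytes in its values was not tested. Over all genes tested 4.22% were called higher and 4.23% lower, and the median of the list was 0.29. The 3 calls came down to 0 without CtrlK1, to 1 without CtrlK2 and to 1 without DNK2.

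The genes whose pattern over the 4 libraries was most like that of *sox18* were searched among 15493 tested genes with a symbol, by the distance between centred log2 CPM values. The nearest were *fosl2* (distance 0.0186), *psmb8a* (0.0266) and *pinx1* (0.0323). The search picked them for this pattern, so log2 fold changes close to that of *sox18* follow from it. *fosl2*, an AP-1 family gene, had 5380, 7960, 4638 and 4571 raw counts (log2 fold change −0.61, adjusted p = 0.023). *psmb8a*, an immunoproteasome subunit gene, had 2534, 3712, 2198 and 2084 raw counts (−0.62, adjusted p = 0.031). *pinx1* had 1146, 1686, 1012 and 989 (−0.58, adjusted p = 0.068), and its row lies directly beside that of *sox7*. With 4 libraries such a likeness describes order and size only.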

How the data were processed

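Per the labels and the methods of the study, the authors checked reads with FastQC 0.11.9, mapped them to GRCz11 with HISAT2 2.2.1, kept uniquely mapped reads and counted them per gene of Ensembl release 103 with featureCounts 2.0.1. The deposited counts are whole numbers, 1 table for each of the 4 libraries, to which the authors had applied no normalization. The strand setting of the counting is not given in the sources used here, so overlapping and antisense genes are uncertain. The study's own test used DESeq2 after an FPKM filter, which needs exon lengths and was not repeated.

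Counts were filtered with filterByExpr (17151 genes left), scaled by TMM and tested with edgeR 4.0.16 in R 4.3.3 (robust glmQLFit, glmQLFTest, two-sided, group as the only term), with Benjamini-Hochberg adjustment over all genes tested. The standard error was the log2 fold change divided by the square root of F, and the 95% intervals used the moderated degrees of freedom. DESeq2 1.42.0, RLE, upper-quartile, total-count and endothelial-marker scaling, 2 other filters (at least 1 count in total, at least 10 in every library), non-robust dispersions, the likelihood-ratio test, the replicate block and each library left out were the alternatives. Summaries and figures used Python 3.11.15, NumPy 2.4.6, pandas 2.3.3, SciPy 1.17.1 and Matplotlib 3.10.9.

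Symbols came from the study's gene table (1998 rows), an identifier table (15775), human-style symbols (7383, which include 5 members) and the chromosome of neighbouring rows (2150). A human-style symbol was turned into a zebrafish name where a single unnamed row carried it and a single fitting zebrafish symbol was still unused. In all, 27306 of 32520 rows had a name. For 833 rows both of the first sources gave a name, and it was identical in 737. The members and gene lists were chosen with earlier results of these data known. Beyond the members, the called genes of each list other than the marker lists (up to 8 by adjusted p), *kdrl*, *cdh5* and the 3 genes nearest to a called member are named, and other names were chosen after their values were seen. The only tables of the zebrafish genome used here are of GRCz12tu, another build than that of the counts, so no coordinates are given. Sequences and protein comparisons were not analysed here.

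Total counts were 25189862 and 28770727 in CtrlK and 28173872 and 26613736 in DNK. Replicates differed beyond counting error (chi-square per degree of freedom 43.2 in CtrlK and 19.7 in DNK) and correlated at 0.948 and 0.939 (Pearson, log2 CPM, across genes). Replicate numbers are shared between groups, but the groups are different fish.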

Additional observations from a re-analysis of the deposited data

How the results depend on the processing

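With 2 libraries per group, each result rests on few fish pools. The log2 fold change of *sox18* had adjusted p from 0.00082 to 0.13 over 10 alternatives other than leaving out a library, and it passed in 8 of them, the exceptions being total counts (−0.54) and endothelial scaling (−0.32). Endothelial scaling reversed *sox7* (0.052), *erg* (0.20) and *etv2* (0.19), and brought *fli1a* (0.35), *fli1b* (0.44) and *ets1* (0.61) past the threshold. It gave 3 members higher and 0 lower, against 12.6% and 3.11% of all genes tested. Members called lower were 0 with total counts and 2 both without a filter (*sox17* −2.32) and with the replicate block (*sox17* −2.59). Genes called over all, in either direction, were 1427 of 17151 with total counts, 3090 of 24155 without a filter and 1641 of 17151 with the block. With at least 10 counts in every library *sox17* was not tested and *ets2* stood at −0.011.

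Leaving out 1 library in turn gave −0.38 to −0.12 for *sox7*, −3.97 to −1.58 for *sox17*, −0.73 to −0.47 for *sox18*, −0.020 to 0.15 for *fli1a*, 0.13 to 0.18 for *fli1b*, −0.16 to −0.02 for *erg*, −0.24 to 0.028 for *etv2*, 0.24 to 0.41 for *ets1* and −0.11 to 0.14 for *ets2*. It left 0 members called higher and 0 to 1 lower, with 319 to 362 genes called higher and 291 to 488 lower in all (723 and 726 with all libraries). Of the lists it left 1 other ETS gene, 0 to 1 other Sox genes, 4 to 6 linked endothelial genes and 0 to 3 partner factors called.

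Other ETS genes called were 3 with DESeq2 and without a filter, 5 with endothelial scaling, and 2 with at least 10 counts in every library and with the likelihood-ratio test. Other Sox genes called were 2 with endothelial scaling. Partner factors called were 5 with DESeq2 and without a filter and 6 with endothelial scaling. Beside these counts, 15.8% of all genes tested were called with DESeq2 and 15.8% with endothelial scaling. The fit without a filter called 3090 of 24155, that with at least 10 counts 1705 of 14320 and the likelihood-ratio test 2239 of 17151. Over all genes, DESeq2 called 1271 higher and 1432 lower, the fit without a filter 1315 and 1775 of 24155, endothelial scaling 2168 and 534, and the likelihood-ratio test 1268 lower. Total counts alone raised the share of calls that were higher from 49.9% to 56.4%.

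Deviations from the group means correlated at 0.09 between the libraries numbered 1, and 2 pairs are too few to read the numbers as a pairing. The replicate block changed no member call other than that of *sox17*.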

Other observations

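Rows within 5 places of a member in the count table held 30 tested genes that are not members, of which 6 were called, against 8.45% of all genes tested, and those named here were chosen after their values were seen. Beside *erg* and *ets2*, which did not pass the test, *mpzl1l* had 20 and 30 raw counts in CtrlK and 665 and 789 in DNK (log2 fold change 4.78, adjusted p = 0.00035 in edgeR's quasi-likelihood test). On the other side of the same pair, *pigp*, which codes for a subunit of an enzyme of GPI anchor synthesis, had 169 and 97 in CtrlK and 1606 and 1698 in DNK (3.50, adjusted p = 0.0029). *lrrc32*, also near *ets2*, had 164 and 178 in CtrlK and 52 and 44 in DNK (−1.93, adjusted p = 0.037). Near *sox7*, *blk*, a Src family kinase gene, had 252 and 429 in CtrlK and 105 and 78 in DNK (−1.97, adjusted p = 0.017), and *tdh* was lower by a smaller step (−0.42, adjusted p = 0.041). *mrc1a*, the lymphatic and venous receptor gene near *sox17*, had 199 and 280 in CtrlK and 85 and 83 in DNK (−1.59, adjusted p = 0.037). No called gene lay within 5 rows of *sox18*, *fli1a*, *fli1b*, *etv2* or *ets1*.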
